A study of Mus musculus with 419 samples.

Results

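The mitochondrial RNAs of mouse embryonic stem cells were examined together with the nuclear rows that resemble them. The members were taken by annotation and name. They are the 37 genes of chromosome M in GENCODE vM21 (13 mRNAs, 2 ribosomal RNAs and 22 tRNAs), 6 pseudogenes on chromosome 1 that lie side by side between 24612407 and 24616197 (mm10), and Lars2 on chromosome 9. These are 44 of the 48087 annotated genes that have a row in the deposited tables, of which 35126 hold a value above 0. The cells were 419 single G1-phase cells of F1-21.6, a female hybrid line with chromosomes of 129Sv and Cast/EiJ, kept on Laminin-511 in medium with serum and leukemia inhibitory factor (LIF). All carry the same strain background, and no treatment or second line was included. Only this line was used and no separate cultures are named in the labels. The 419 cells were therefore described as 1 sample, with no test between groups. Each cell was read by RamDA-seq, which copies total RNA along its full length, and the values were deposited as 2 tables, 1 for the 129 allele and 1 for the CAST allele.

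The mitochondrial genome is a small circle that mitochondria transcribe themselves. Each strand is read as a long precursor in which tRNAs punctuate the other genes, and cutting the tRNAs out frees the mRNAs and ribosomal RNAs. Its mRNAs encode core subunits of the respiratory chain and ATP synthase, whose other subunits come from nuclear genes, and all but mt-Nd6 are encoded in the same sense as the ribosomal RNAs. Pieces of mitochondrial DNA have also been inserted into nuclear chromosomes over evolution, and reads from such copies and from mitochondria can be hard to separate.

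The sequences below show how close the chromosome 1 rows are to their mitochondrial counterparts. They are GENCODE vM21 transcript sequences on mm10, a reference that is neither 129 nor CAST. The transcript of Gm10222 (chr1:24612407-24612700, minus strand) equals mt-Nd4l (chrM:9877-10173, plus strand) over its whole length of 294 bases. In the mt-Nd4l sequence, capitals mark the 3 bases that Gm10222 does not reach.
mt-Nd4l: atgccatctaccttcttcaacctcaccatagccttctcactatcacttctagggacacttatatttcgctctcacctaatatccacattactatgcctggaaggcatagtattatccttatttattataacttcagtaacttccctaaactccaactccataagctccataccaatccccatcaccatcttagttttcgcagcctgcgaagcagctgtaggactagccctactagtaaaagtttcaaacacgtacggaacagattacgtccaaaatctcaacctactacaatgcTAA
The start of mt-Atp6 (chrM:7927-8607, plus strand) is shown because Gm10925 equals mt-Atp6 over its 678 bases, and because the 43 bases in capitals also belong to the end of mt-Atp8.
mt-Atp6: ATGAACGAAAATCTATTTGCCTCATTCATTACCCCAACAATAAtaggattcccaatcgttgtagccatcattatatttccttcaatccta
The start of Gm29216 (chr1:24615706-24616197, minus strand) is set beside bases 1054 to 1096 of mt-Co1 (chrM:5328-6872, plus strand) because it holds all 6 bases in which they differ, in capitals. Counted from 1 at the 5′ end of mt-Co1, with the mitochondrial base first, these are T1056A, C1057T, A1059G, A1060G, C1062A and A1066T.
mt-Co1: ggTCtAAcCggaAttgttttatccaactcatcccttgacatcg
Gm29216: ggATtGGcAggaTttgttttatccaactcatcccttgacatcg
Gm28438 (chr1:24612775-24613119, minus strand) and mt-Nd3 (chrM:9459-9806, plus strand) differ in 1 of 345 bases, T3C, counted in the same way from the 5′ end of mt-Nd3 and shown in capitals.
mt-Nd3: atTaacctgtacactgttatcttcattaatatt
Gm28438: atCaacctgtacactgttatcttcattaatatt

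The other 2 copies were also identical to their counterparts in this reference. Gm28661 equals mt-Co2, a subunit of cytochrome c oxidase (complex IV), over 681 of 681 bases, and Gm28437 equals mt-Co3 of the same complex over 783 of 783. Gm29216 covers only the 3′ end of mt-Co1, the catalytic subunit of that complex, with 482 identical bases in an aligned stretch of 483. A seventh row of the cluster, Gm28439, equals the first 876 bases of mt-Nd4 but held only 653 units over all cells in the 129 table, so it was treated as a comparison and not as a member. Lars2, the leucyl-tRNA synthetase of mitochondria, is different in kind. Its longest identical stretch with any mitochondrial mRNA or ribosomal RNA was 14 bases, in mt-Rnr1, and it shared no 25-base word with any of them. Reads from the identical stretches cannot be told apart by these letters alone, and whether the line's 129 and CAST genomes differ there was not tested.

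Mitochondrial RNA was listed in the CAST table alone, and its look-alikes in the 129 table. The 37 chromosome M rows summed to 17870733 units over all cells in the CAST table and to 0 in the 129 table, where a unit is the authors' scaled and rounded allele value and not a read. The 6 copies summed to 1274443 units in the 129 table against 382 in the CAST table. Lars2 held 9879653 units in the 129 table against 9438 in the CAST table. Besides the 6 copies, 20 nuclear rows shared at least 1 word of 25 bases with a mitochondrial mRNA or ribosomal RNA, and only 2 of them exceeded 100 units in either table, Gm28439 and Gm13340 on chromosome 2 (172 units in the 129 table). Strong signal was therefore found at the 6 chromosome 1 copies and not across all rows that share a word. These rows were not equally alike to mitochondrial genes. The 6 copies shared 97.2% to 100% of their words with the counterpart, and Gm28439 100%. Rows outside the cluster shared at most 54.0% (Gm13341), so place and likeness cannot be told apart.

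Per cell, chromosome M held 8.34% ± 2.04 (SD, n = 419 cells) of the CAST total, with a lowest value of 0.0224%, a median of 8.60% and a highest value of 13.7%. In 9 cells this share was under 1%, and correlations that move with these cells are given with and without them. The 6 copies held a median of 0.739% of the 129 total and Lars2 a median of 5.63%. Cells came from 5 sequencing lanes, numbered 2 to 6, and the lane medians of the mitochondrial share ran from 8.03% to 8.99%. SDs over lanes are given below as a measure of spread that may be technical. The 129 totals ran from 324115 to 683868 units per cell and the CAST totals from 353551 to 793788, and their depth in reads is not known. No 2 cells had identical columns. Markers of embryonic stem cells matched the labels: all 8 listed genes (Pou5f1, Sox2, Nanog, Klf4, Esrrb, Zfp42, Dppa5a, Tdgf1) were above 0 in at least 97.6% of cells. The summed mean level of these 8 was 2668 units per cell. It was 23.4 for 6 fibroblast markers, above 0 in 0.239% (Lum) to 25.5% (Col1a1) of cells, and 2.35 for 4 endoderm markers, above 0 in 5.01% (Sox17) to 35.1% (Gata4). All of these 6 and 4 had a median of 0. The 4 neural markers summed to 65.7 units and were above 0 in 36.5% (Pax6) to 96.7% (Tubb3). Their part in the results was not tested.

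Ribosomal RNA made up most of the mitochondrial signal. mt-Rnr2, the large-subunit ribosomal RNA of mitochondria, ran from 40 units in the lowest cell through a median of 22766 to 41321 in the highest. mt-Rnr1, the small-subunit ribosomal RNA, ran from 52 through 11786 to 19044. Per kilobase the levels were close, 13953 ± 622 units for mt-Rnr2 and 12100 ± 574 for mt-Rnr1 (mean ± SD over 5 lanes). The pooled ratio of ribosomal RNA to mRNA was 3.75, and 3.30 when both were taken per kilobase. Cells with more mitochondrial mRNA also held more mitochondrial ribosomal RNA, with a Spearman rho of 0.70 over 419 cells. It ranged from 0.68 to 0.72 over 6 alternatives, which left out 1 lane or the cells under 1%. Other scalings and forms of correlation were not tried for it. This and all later correlations are descriptions across cells that share library chemistry and, within a lane, a sequencing run.

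Complex I, which takes electrons from NADH, has 7 mitochondrial subunits, and their levels spread widely. mt-Nd1 was the highest in mean level per kilobase, at 1140 ± 68.1 units (SD over 5 lanes). mt-Nd5 followed with 690 ± 92.0 and mt-Nd4 with 597 ± 26.2, and mt-Nd2 stood lower at 271 ± 30.5. mt-Nd6, the light-strand mRNA, was at 149 ± 20.5 and mt-Nd4l at 81.6 ± 6.73. mt-Nd3 was lowest of all 13 mRNAs at 10.5 ± 2.58, with a median of only 2 units per cell. mt-Nd4 and mt-Nd5 lay close together against their lane spread, while the steps from mt-Nd1 to mt-Nd5 and from mt-Nd2 to mt-Nd6 exceeded it.

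Among the other complexes, mt-Co1 was the highest mRNA, at 2083 ± 84.9 units per kilobase (SD over 5 lanes), with a lowest cell at 4 units, a median of 3279 and a highest cell at 5654. mt-Co2 was at 1084 ± 62.1 per kilobase, within the lane spread of mt-Nd1. mt-Cytb, the only mitochondrial subunit of complex III, was at 654 ± 59.0, next to mt-Nd5. The ATP synthase gene mt-Atp6 was at 455 ± 29.7 and mt-Co3 at 420 ± 9.85, a gap close to the lane spread of mt-Atp6. The second ATP synthase gene mt-Atp8 was at 258 ± 46.8, close to mt-Nd2.

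Adding each copy to its counterpart changed this order. mt-Co2 became the highest mRNA at 2991 ± 193 units per kilobase, ahead of mt-Co1 at 2644 ± 65.8 (mean ± SD over 5 lanes, per kilobase of the mitochondrial transcript). mt-Co3 rose from rank 8 to rank 4 with 1135 ± 22.2, and mt-Atp6 from rank 7 to rank 5 with 812 ± 65.8. mt-Nd4l came to 257 ± 9.28, level with mt-Atp8, and mt-Nd3 to 51.4 ± 3.83, which left it lowest. Which of these sums better reflects mitochondrial RNA cannot be told apart from the tables.

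**Figure D1:**
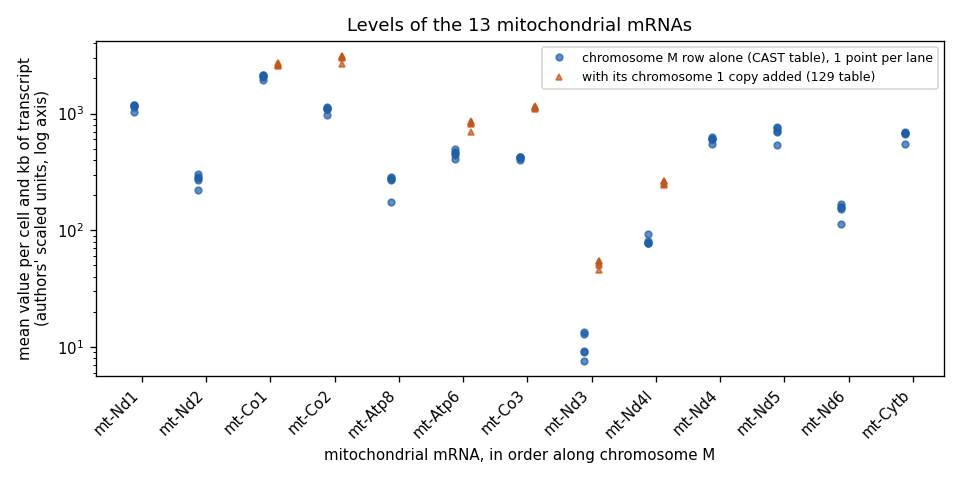
Mean value per cell and kilobase of transcript (authors' scaled units, log axis) for the 13 mitochondrial mRNAs in their order along chromosome M. Circles are the chromosome M row alone and triangles the sum with its chromosome 1 copy, 1 point for each of 5 lanes. mt-Co1 leads among the circles at about 2083, mt-Co2 among the triangles at about 2991, and mt-Nd3 is lowest in both.

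Lane 6 stood below the other lanes for many mitochondrial rows. The mean of mt-Atp8 was 35.8 units per cell there against 55.3 to 59.0 in the other lanes, and mt-Nd5 was 974 against 1269 to 1399. mt-Nd6 was 59.2 in lane 6 against 78.6 to 86.7. The fall did not extend to mt-Co3, with 334 units in lane 6 against 316 to 334 elsewhere, and Gm29216 was highest in lane 6, with 941 units against 792 to 881. The cells' assignment to lanes was not explained in the labels, so lane and cell differences cannot be told apart.

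The tRNAs, which carry amino acids to the mitochondrial ribosome, were almost absent but for mt-Ts1. That tRNA for serine summed to 25955 of the 26957 units of all 22 tRNA genes and was above 0 in 98.8% of cells, with a lowest value of 0, a median of 63 and a highest of 119. It lies at chrM:6870-6938 on the minus strand and shares 3 bases with the end of mt-Co1. mt-Te followed with 419 units over all cells, mt-Tp with 232, mt-Tl1 with 53 and mt-Tf with 48. The lowest were mt-Tr, listed at 0 in every cell, and mt-Ti and mt-Td with 1 unit each, and 19 of the 22 genes had fewer than 100. mt-Te and mt-Tp also lie on the minus strand, but the other 5 tRNA genes on that strand had only 6 to 42 units, against up to 53 on the plus strand. With the counting's use of strand not given in the sources used here, tRNA reads and reads of the opposite sense cannot be told apart.

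Each copy was then set beside its counterpart in every cell. As a share of the pair's summed value, Gm28438 took 79.6% ± 4.28 of the mt-Nd3 pair (pooled over cells, SD over 5 lanes), Gm10222 68.2% ± 2.55 of the mt-Nd4l pair, Gm28661 63.8% ± 1.03 of the mt-Co2 pair and Gm28437 63.0% ± 0.324 of the mt-Co3 pair. Gm10925 took 43.9% ± 2.14 of the mt-Atp6 pair and Gm29216 21.2% ± 1.62 of the mt-Co1 pair. The pooled ratios of copy to mitochondrial row ran from 0.269 for Gm29216 to 3.90 for Gm28438. Neither shares nor ratios were adjusted for length. Gm29216 aligned to only 31.3% of mt-Co1, and each other copy to 99.0% or more of its counterpart. Per kilobase of its own transcript Gm29216 had a mean of 1762 units against 2083 for mt-Co1, and Gm10925 had 358 against 455 for mt-Atp6. The lowest place of Gm29216 therefore holds for unadjusted values only. Gm28439 took 0.189% of its pair with mt-Nd4 although those bases are identical too, so equal sequence did not go with an equal split.

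The mt-Co3 pair divided in nearly constant proportion. Gm28437 ran from 0 units through a median of 579 to 1218, and mt-Co3 from 0 to 609 with a mean of 329. The share of Gm28437 had quartiles of 62.3% and 63.2%, although 5% of the 410 cells with at least 1% of CAST values on chromosome M lay above 69.0%. Spearman's rho between the 2 rows was 0.89 over 419 cells (0.85 to 0.92 within single lanes), and mt-Co3 was the closest of the 15 mitochondrial mRNAs and ribosomal RNAs to this copy.

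The mt-Nd4l pair fell into separate ranges of cells. In 269 of the 410 cells (65.6%), Gm10222 held at least 90% of the pair: mt-Nd4l had a median of 5 units there (2 to 10) and Gm10222 a median of 70 (20 to 132). In 33.7% of the 410 cells Gm10222 held less than 50%, with mt-Nd4l at a median of 60.5 units (35 to 119) and Gm10222 at 16 (0 to 63). Only 3 cells lay between. The mt-Nd4l values of the 2 ranges did not overlap, yet the summed value of the pair was alike, with medians of 75 and 79 units. Both ranges occurred in every lane, where the first took 59.8% to 69.1% of cells. Over all 419 cells rho between Gm10222 and mt-Nd4l was -0.29, the lowest of this copy's 15 correlations. The Pearson correlation of log2(value + 1) was -0.47 over all cells and -0.70 without the 9 cells under 1%. The limits of 90% and 50% were chosen after the values were seen.

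The mt-Nd3 pair had a small set of exceptions. In 28 of the 410 cells Gm28438 held less than 10% of the pair, at 0 to 3 units (0 in 26 of them), and mt-Nd3 had a median of 19.5 units (6 to 42). In the remaining cells its share was 80.0% or more, Gm28438 had a median of 15 units (2 to 94) and mt-Nd3 a median of 2 (0 to 15), so the mt-Nd3 ranges overlapped. The limit of 10% was chosen after the values were seen. The Spearman correlation over 419 cells was 0.56, but the Pearson correlation of log2(value + 1) was -0.23, and -0.40 without the 9 cells under 1%, so the sign depends on whether ranks or log values are used.

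The mt-Atp6 pair was split broadly. The share of Gm10925 ran from 16.7% to 75.9% between the 5th and 95th percentiles of the 410 cells, with a median of 43.8%. Gm10925 ran from 0 units through a median of 238 to 1113, and mt-Atp6 from 1 to 912 with a mean of 310. Their rho was -0.20 over 419 cells and -0.28 without the 9 cells under 1%, and the Pearson correlation of log2(value + 1) was 0.45 over all cells and -0.195 without those 9, so the positive sign rested on them. For the mt-Co2 pair rho was 0.50 and for the mt-Co1 pair 0.62. The Pearson correlation for the mt-Co2 pair was 0.92 over all cells and 0.56 without the 9, and for the mt-Co1 pair 0.91 and 0.69. By rank, mt-Co2 was only the eleventh closest of 15 mitochondrial rows to Gm28661, whose closest was mt-Rnr1 at 0.73. The splits varied largely independently of each other: over the 15 pairs of copies, rho between their shares ran from -0.17 to 0.25 in 410 cells.

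**Figure D2:**
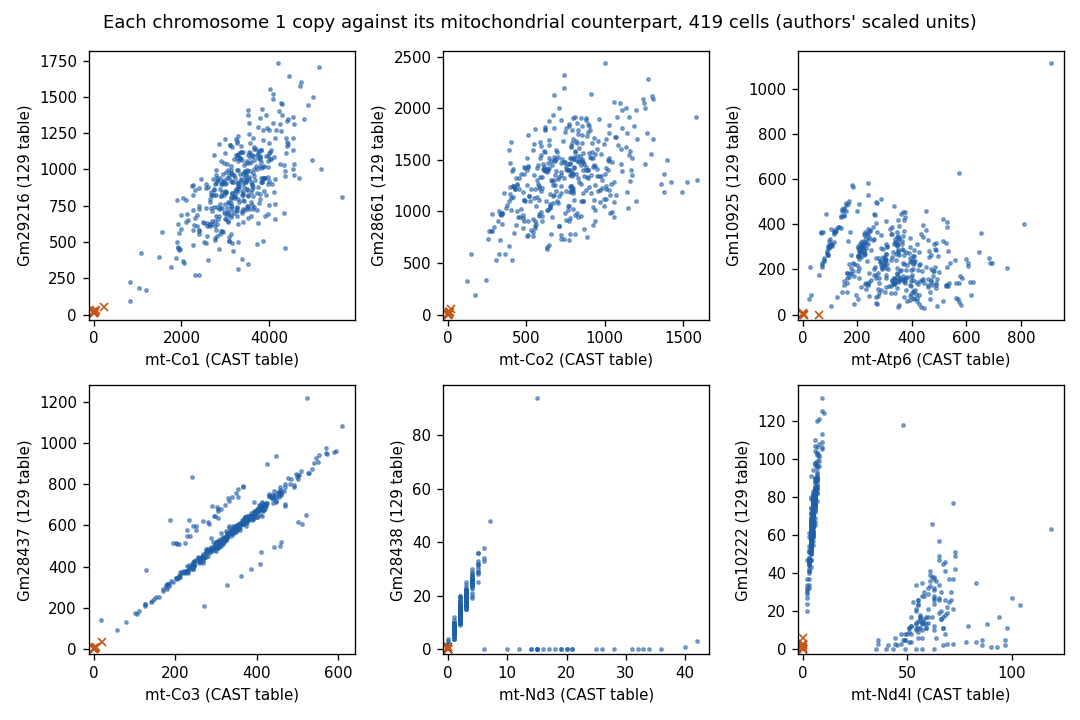
Value of each chromosome 1 copy (129 table, y axis) against its mitochondrial counterpart (CAST table, x axis) in authors' scaled units, 1 point per cell, 419 cells. Crosses are the 9 cells with under 1% of the CAST table on chromosome M. Gm28437 lies along a line with mt-Co3, Gm10222 and mt-Nd4l form 2 bands, and 26 cells have mt-Nd3 with Gm28438 at 0.

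A group of 9 cells stood apart from the rest, and the limit of 1% used for them was chosen after seeing the values. In these cells, which came from lanes 2, 3, 4 and 6, chromosome M held 0.0224% (cell 45) to 0.539% (cell 126) of the CAST total, against 1.64% to 13.7% in the other 410. mt-Rnr2 ran from 40 to 1173 units in the 9 cells and from 3221 to 41321 in the others. mt-Co1 ran from 4 to 244 units against 824 to 5654. All 9 cells lay below all other cells for both ribosomal RNAs and for every mRNA except mt-Nd3, mt-Atp6 and mt-Co3. The cells were chosen by the sum of these same rows, so low values of its main parts follow from the choice. mt-Nd3 was 0 in the 9 cells and 0 to 42 elsewhere. In cell 126 mt-Atp6 reached 58 and mt-Co3 reached 21, against lowest values of 23 and 19 elsewhere.

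The chromosome 1 copies were low in the same cells. Their summed share of the 129 total was 0.00388% to 0.0376% in the 9 cells and 0.1505% to 1.33% in the other 410, without overlap. Lars2 was not: it ran from 11516 to 26513 units in the 9 cells, within the 10590 to 35757 of the others. Their CAST totals, of which mitochondrial RNA is a part, were all below the lower quartile of the others, while the share of the 2 nuclear ribosomal RNA rows overlapped, at 12.3% to 21.7% against 8.68% to 23.8%. The nuclear long noncoding RNA Malat1 had a median of 3198 units in the 9 cells against 1400.5 in the others. Neat1, the RNA scaffold of paraspeckles, had a median of 744, where the others' upper quartile was 540.5, and for each of the 2 RNAs 7 of the 9 cells lay above that quartile. Among cytosolic mRNAs, Eef1a1, a translation factor, had a median of 4725 units against 5219.5 and the glycolytic Gapdh 2511 against 2771. These 4 genes were picked after the low cells had been seen. The 8 stem cell markers also had lower medians in the 9 cells, such as Pou5f1 at 199 units against 275.5, except Sox2 at 60 against 58. The part of any of these genes in the low values was not tested.

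**Figure D3:**
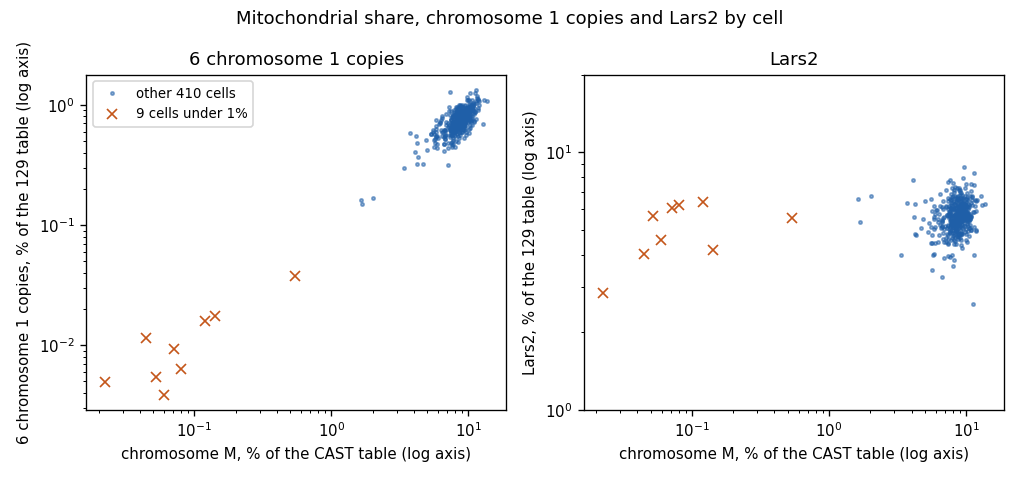
Share of the CAST table on chromosome M (x axis, %, log axis) against the share of the 129 table held by the 6 copies (left, log axis) and by Lars2 (right, log axis), 1 point per cell. The 9 cells under 1% (crosses) are low for the copies, at 0.0376% or less, and lie among the other 410 for Lars2.

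The mitochondrial mRNAs rose and fell together over cells. Values were scaled to each cell's autosomal sum without the copies, Lars2 and the nuclear ribosomal RNA rows. Over the 78 pairs of the 13 mRNAs the median Spearman rho was 0.50, and 0.47 without the 9 low cells. The highest pairs were mt-Nd4 with mt-Cytb and mt-Nd5 with mt-Nd6, both at 0.80, and mt-Nd1 with mt-Nd2 at 0.76. mt-Nd5 and mt-Nd6 lie on opposite strands and share 14 bases at their ends, and reads there cannot be assigned without strand. The lowest was mt-Nd2 with mt-Atp6 at 0.22. By gene, the median rho with the other 12 mRNAs was highest for mt-Nd5 (0.64), mt-Nd4 (0.61) and mt-Co1 (0.61). It was lowest for mt-Nd4l (0.39), mt-Atp6 (0.40) and mt-Nd3 (0.41). These 3 are among the 6 of 13 mRNAs that have a copy, and so is mt-Co1.

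Summing each gene with its copy raised most of these correlations. The median over the 78 pairs became 0.59, with 50 of the 57 pairs that involve a gene with a copy higher than before. The values by gene that follow are a different measure: only the named gene was summed with its copy, and the other mRNAs were taken without copies. In this measure mt-Atp6 went from a median of 0.40 with the other mRNAs to 0.60, while Gm10925 alone stood at 0.36. mt-Nd4l went from 0.39 to 0.52 with Gm10222 alone at 0.24, and its coefficient of variation fell from 1.18 to 0.318 when the 2 rows were summed. mt-Co2 went from 0.54 to 0.65. mt-Co1 was the exception, with 0.61 alone and 0.57 summed with Gm29216, whose own median was 0.35.

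As a sum, the 6 copies followed mitochondrial mRNA with a rho of 0.80, and 0.78 without the 9 low cells. Lars2 followed it with 0.16. The 129 and CAST totals had a rho of -0.04 and 0.17 with mitochondrial mRNA and of -0.04 and 0.13 with the copies. For Lars2 these were 0.20 and 0.15. With the autosomal sum used for scaling, rho was -0.15 for mitochondrial mRNA, -0.16 for the copies and -0.28 for Lars2.

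**Figure D4:**
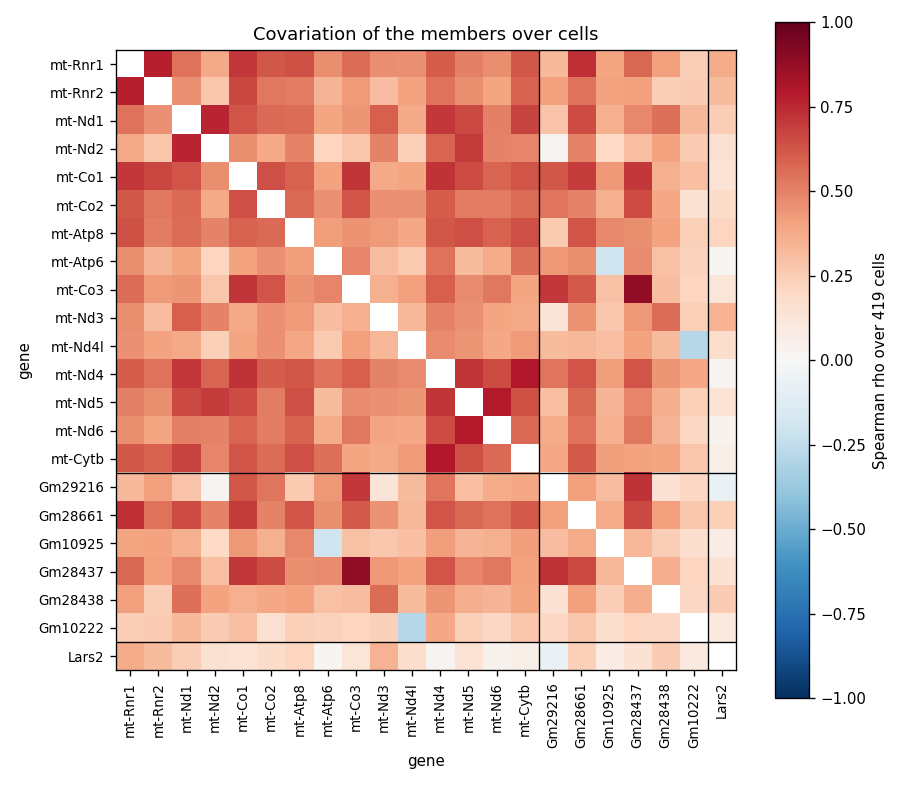
Spearman rho over 419 cells for each pair of 2 mitochondrial ribosomal RNAs, 13 mRNAs, 6 chromosome 1 copies and Lars2 (colour scale from -1 to 1, both axes list genes in chromosome order within each class). Nearly all squares are red, Gm28437 with mt-Co3 is darkest at 0.89, Gm10222 with mt-Nd4l and Gm10925 with mt-Atp6 are blue, and the Lars2 row is pale.

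mt-Rnr2 was set beside Lars2 because its pooled value was the nearest of the mitochondrial genes, so their ratio of 1.07 follows from that choice. Over cells the rho of Lars2 with mt-Rnr2 was only 0.318 (0.21 to 0.45 within single lanes), and 0.37 with mt-Rnr1. Of 11421 nuclear genes, 127 (1.11%) had a rho with Lars2 at or above 0.318, and the median over all was -0.00758. The closest were Mir6236 at 0.84 and CT010467.1, a row for cytosolic ribosomal RNA, at 0.83, followed by AA474408 at 0.62, n-R5-8s1 (5.8S ribosomal RNA) at 0.59 and the ribosomal protein gene Rpl8 at 0.55. The rho of Lars2 with CT010467.1 was the same size for the 129 row, 0.83 (0.80 to 0.87 within lanes), and the CAST row, 0.82 (0.79 to 0.87). The other nuclear ribosomal RNA row, Gm26917, stood at 0.38. The Lars2 transcript shared at most 24 identical bases, with 3 mismatches and 2 gaps, with the transcripts of CT010467.1. Introns of Lars2 and the transcript of n-R5-8s1 were not compared, and the cause of the likeness over cells was not tested. The comparison of Lars2 with ribosomal RNA rows was added after the values were seen.

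**Figure D5:**
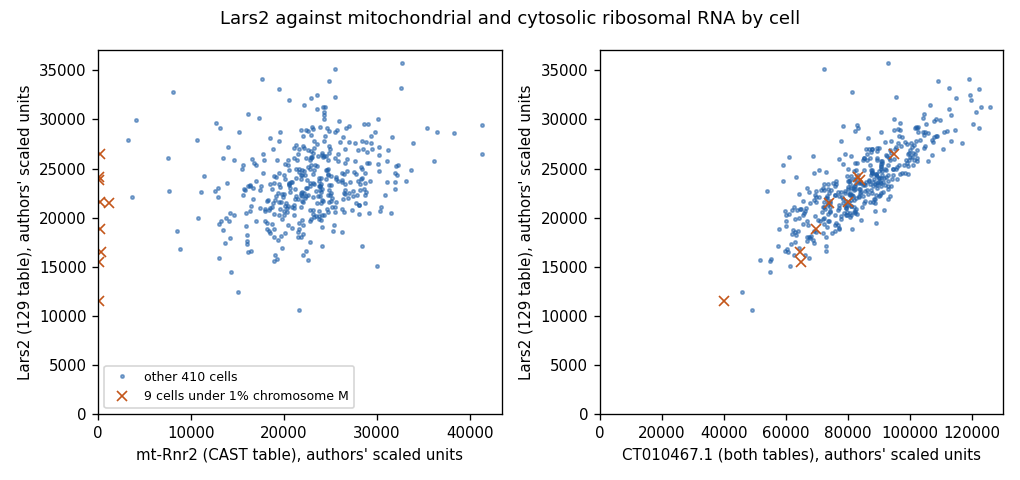
Lars2 (129 table, y axes) against mt-Rnr2 (CAST table, left) and against CT010467.1 (both tables summed, right), in authors' scaled units as deposited, 1 point per cell. Crosses are the 9 cells under 1%. In the left plot they fall at the left edge with Lars2 between 11516 and 26513, and in the right plot they lie within the band of the other 410 cells.

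Nuclear genes followed mitochondrial mRNA only weakly. Of 11421 measured nuclear genes, 115 (1.01%) had a rho of at least 0.2 with the summed mitochondrial mRNA and 8 (0.07%) a rho of -0.2 or less, and the median was 0.00677. Without the 9 low cells the counts were 83 and 11, and with ranks taken within lanes they were 77 and 9. Without lane 2 they were 199 and 37, and the lower count was 17, 30 and 18 without lanes 3, 4 and 5. The highest were Uqcrb, a complex III subunit, at 0.34, the mismatch repair gene Msh6 at 0.32, Lrpprc, which stabilises mitochondrial mRNAs, at 0.315, the mitochondrial chaperonin Hspd1 at 0.31 and the ribosomal protein gene Rps3a1 at 0.31. Ranked within lanes, these genes were at 0.25, 0.32, 0.25, 0.22 and 0.25 in the same order. The lowest were Prrg4 at -0.22, the polarity gene Pard3 at -0.22, Impact at -0.21, Fem1b at -0.21 and the gap junction gene Gja1 at -0.20. In counts of this kind such values are small, and they are given as a description.

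Nuclear subunits of the respiratory chain and ATP synthase lay higher than the median gene. Of 76 listed subunits, all measured, 16 reached 0.2, where 1.01% of all genes and 2.25% of the 4448 genes with a pooled value of at least 10000 did. None reached -0.2, and the median was 0.14. By complex the 16 were Ndufv2 (0.27), Ndufb3 (0.22), Ndufa6 and Ndufa5 among 36 complex I genes, Uqcrb, Uqcrc2 (0.23) and Uqcrh (0.23) among 9 of complex III, and Cox7a2 (0.27), Cox6c (0.26), Cox5a and Cox7b among 11 of complex IV. ATP synthase had 5 of 16, Atp5l (0.31), Atp5j2 (0.26), Atp5f1, Atp5j and Atp5b. Without the 9 low cells 11 of the 76 reached 0.2, and Ndufb3, Ndufa5, Uqcrc2, Cox5a and Cox7b fell short of it at 0.190 to 0.197. Complex II, which has no mitochondrially encoded subunit, had 0 of 4. Its median of 0.15 lay between those of complex I (0.12) and complex III (0.19), with 0.16 for complex IV and 0.17 for ATP synthase. The lowest members were near 0, such as Atp5d at -0.02 and Ndufc1 at -0.02. The 8 stem cell markers, which are also well expressed, had 0 of 8 and a median of 0.08.

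Genes that make or handle mitochondrial RNA lay closer to the median gene. Of 15 measured genes for mitochondrial transcription and DNA upkeep none reached 0.2, with a median of 0.03. The poly(A) polymerase Mtpap was highest at 0.16 and the polymerase subunit Polg2 lowest at -0.04. Of 22 genes for RNA processing and stability 2 did (9.09%, with 1.01% of all genes, and a list median of 0.07), Lrpprc and Hsd17b10 (0.22), a subunit of mitochondrial RNase P, and the methyltransferase gene Mrm1 was lowest at -0.10. The mitochondrial ribosome had 2 of 48 large-subunit genes (4.17%), Mrpl42 (0.25) and Mrpl15 (0.21, and 0.19 without the 9 low cells), and 0 of 30 small-subunit genes, with a median of 0.06 in both. The 16 other mitochondrial tRNA synthetases had none, with a median of 0.01 and a range from Cars2 at -0.09 to Iars2 at 0.13, and the 7 measured regulators of mitochondrial biogenesis had none, from Esrra at -0.08 to Pprc1 at 0.09.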

How the data were processed

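RamDA-seq values of 419 single cells were deposited as 2 tables of Ensembl transcripts by cell, 1 per allele. The deposited values are taken as scores: estimated allele counts that the authors scaled and rounded, judged from the values. Per the submitters' processing notes Bowtie 1.1.2 and mm10 were used, with no role stated; the allele assignment tool was not given in the sources used here. Of 117762 rows, 116824 matched GENCODE vM21. In correlations over all measured nuclear genes, the row with the highest pooled value stood for its gene. Levels of members and cell type markers were summed over all rows of the gene. Levels are given as deposited or per kilobase of transcript. For correlations, each cell was divided by its sum over autosomal rows without copies, Lars2 and ribosomal RNA rows. Correlations are Spearman's rho over cells, with no p-value since cells of 1 sample are not replicates. Nuclear genes needed a pooled value of at least 1000 and values above 0 in at least 10% of cells, and a rho of 0.2 was the limit of size. The code was tested on simulated data. Counterparts of the chromosome 1 rows were found by local alignment of transcripts (match 2, mismatch -3, gap open -6, gap extension -2). That of Lars2, mt-Rnr2, was the mitochondrial gene with the nearest pooled value and not a match by sequence. No cell was left out and no doublet caller was run.

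Members and gene lists were chosen with earlier results of these data known. All mitochondrial mRNAs, ribosomal RNAs and copies are named, the 5 tRNAs with the most and the 2 with the fewest units (3, since mt-Ti and mt-Td tie), the highest and lowest members of each nuclear list, members past the limit where 5 or fewer, and the 5 highest and 5 lowest nuclear genes. Genes alike to Lars2, Gm28439, Malat1, Neat1, Eef1a1 and Gapdh were added after their values were seen, as were the 1% limit and the ranges of the pair shares. Alternatives varied the scaling, the correlation, the filters, the limit, the lanes and the cells. Python 3.11.15, numpy 2.4.6, pandas 2.3.3, scipy 1.17.1, matplotlib 3.10.9 and Biopython 1.88 were used.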

Additional observations from a re-analysis of the deposited data

How the results depend on the processing

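Of 110 alternatives to the main results, 80 kept them and 30 moved them. Of 119 to the results of single copies and Lars2, 103 kept them, 11 moved them and 5 reversed them. Kept means a change smaller than the SD over lanes, or for gene counts a change within a fixed factor. Reversed means an opposite sign. Summing all rows of a gene left the values of the copies and Lars2 unchanged by construction, and these were counted as kept. Leaving out 1 of the 5 lanes can hardly change a value by as much as the SD over lanes, so such alternatives were nearly bound to be kept. They make up all alternatives to the ratios of single copies and Lars2. The numbers kept are therefore a weak measure of stability. With Pearson correlations of log2(value + 1) and log2(value + 10), the median over the mRNA pairs was 0.866 and 0.767, Lars2 with mt-Rnr2 0.208 and 0.208, Gm10925 with mt-Atp6 0.454 and 0.281, and Gm28438 with mt-Nd3 -0.228 and -0.271, the last 2 pairs opposite in sign to the ranks. Without the 9 low cells the first form gave 0.492 for the mRNA pairs and -0.195 for Gm10925, close to the ranks. The median over the 6 copies was 0.683 with log2(value + 1); without those cells it was 0.184 and Gm28438 was at -0.402. The ratio of ribosomal RNA to mRNA was 3.30 per kilobase. The mitochondrial share was 10.2% of autosomal CAST values, 10.4% without ribosomal RNA rows and 4.74% of both tables. The share of measured nuclear genes at or above 0.2 was 3.90% and 3.47% with the 2 Pearson forms, 0.569% with the first form without low cells, 3.57% and 0.0613% with limits of 0.15 and 0.3, 0.333% scaled to the own table, and 0.788% to 1.74% leaving out 1 lane. The share at or below -0.2 was 0.359%, 1.24%, 0.0438%, 0.972%, 0% and 0.114% in the same order and 0.0876% to 0.324% leaving out 1 lane, with 0.0438% for values as deposited, 0.130% with all rows of a gene summed and 0.236% without the extreme 5% of totals. The cause was not tested. The added alternatives without low cells were chosen after seeing the data. No paired analysis was possible because the cells form 1 group. The depth in reads is unknown, which limits low rows such as mt-Nd3 and the tRNAs.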
